A study of Mus musculus with 4 samples.

Results

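Ribosome footprints on the core genes of the G1 checkpoint were examined in cultured mouse muscle stem cell progeny. The genes were the D cyclins Ccnd1, Ccnd2 and Ccnd3, their kinases Cdk4 and Cdk6, the inhibitors Cdkn1a, Cdkn1b, Cdkn1c and Cdkn2a, and Rb1, the substrate on which these kinases act. They were chosen by name as 10 of the 55573 genes in the deposited table. All 10 were found there, and all 10 had a mean level of at least 1 RPKM (reads per kilobase of the gene model, put on a common library scale), the filter set for testing. Cdkn1c and Cdkn2a reached it only through the WT libraries.

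D-type cyclins accumulate when growth factors act on a cell and bind CDK4 or CDK6, and the active kinases phosphorylate the retinoblastoma protein so that E2F factors can switch on the genes of S phase. The CIP/KIP proteins (p21, p27 and p57, from Cdkn1a, Cdkn1b and Cdkn1c) bind cyclin-CDK complexes, whereas INK4 proteins bind CDK4 and CDK6 alone and keep the cyclin out. In muscle, cyclin D1 holds MyoD back while myoblasts divide, and p21, p57, cyclin D3 and Rb1 are known for their part in cell cycle exit when myoblasts differentiate.

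Ribo-seq, the sequencing of mRNA fragments that ribosomes protect from nuclease, was performed on primary myoblasts with 2 libraries labelled WT and 2 labelled KO, all taken on day 2 of proliferation culture. The study concerns eIF5A, a translation factor that carries hypusine, a residue made from spermidine. In the KO mice both Eif5a alleles are floxed and tamoxifen activates a Cre recombinase driven from the Pax7 locus (Pax7-CreERT2/+; eIF5A f/f), so deletion is limited to cells that express Pax7 and depends on how many of them recombine. The WT mice were littermates whose full genotype was not given for these cultures. Cells of both groups came from hind-limb muscle of 3-week-old mice, were grown in DMEM with 10% fetal bovine serum and FGF, and received cycloheximide before lysis. The study calls the libraries of a group duplicate experiments. How many animals or cultures stood behind each was not stated, so the spread between libraries may be technical.

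The libraries held 642429 to 704006 gene-assigned reads, of which protein-coding genes took 33.9% to 41.5% in WT and 59.2% to 65.4% in those labelled KO. The 10 genes had 505, 424, 773 and 795 reads in WT replicates 1 and 2 and in the libraries labelled KO replicates 1 and 2, the order used for every set of 4 values. Eif5a had 50, 73, 130 and 114 reads and levels of 34.9, 65.2, 60.3 and 59.4 RPKM, so it was not lower in the libraries labelled KO. These gene-level values do not show which exons the reads fell in. WT replicate 1 stood apart in the sum of 15 markers of differentiating muscle, which was 315, 65.0, 45.1 and 40.3 RPKM. Its largest parts in WT replicate 1 were Acta1 (128.5 RPKM), Myog (91.0) and Actc1 (63.6). Other members did not follow, as Ckm and Tnnt3 were highest in WT replicate 2 and Myh8 in KO replicate 2. Of the 15, 6 were lower in both libraries labelled KO than in both WT libraries, against 20.3% of all genes tested. Only Mef2c was higher, against 20.1%, and 8 overlapped. Myog, the myogenin gene of that list, had 82, 3, 1 and 2 reads. The 8 myoblast markers summed to 349, 287, 187 and 219 RPKM, with Pax7 at 8.49, 3.62, 0.941 and 1.48 RPKM and Myod1 at 140, 117, 48.6 and 79.8 RPKM, both lower in both libraries labelled KO than in both WT libraries. Of the 8 markers, 5 had that order, against 20.3% of all genes tested, and 3 overlapped. Among those that overlapped, Itga7 was at 22.75, 12.1, 29.7 and 8.87 RPKM and Sdc4 at 87.3, 98.3, 89.2 and 101 RPKM. Fibroblast markers (10 genes) summed to 478, 285, 838 and 370 RPKM, endothelial markers (7) to 155, 170, 195 and 173, immune markers (8) to 45.7, 60.6, 56.9 and 49.5 and mural cell markers (5) to 156, 122, 99.3 and 108. Of the immune markers, Itgam and C1qa were at 0 in all 4 libraries and the other 6 had reads, with Adgre1, Csf1r and Cd14 higher and Cd68 and Lyz2 lower in both libraries labelled KO than in both WT libraries. Markers named here were picked with their values in view.

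Since eIF5A is known for helping ribosomes past runs of consecutive prolines, the coding sequences of the 10 genes were searched for them. A run of at least 3 proline codons was present in 3 of the 10 genes, against 25.8% of the 9869 protein-coding genes tested. They are printed here because they are the sites in the set that bear on what eIF5A is known to do. The stretches are read 5′ to 3′ from GENCODE vM21 models of the GRCm38 build, with the proline codons in capitals and 6 flanking codons on each side.
Rb1: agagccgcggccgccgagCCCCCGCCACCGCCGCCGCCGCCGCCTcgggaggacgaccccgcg
Cdk4: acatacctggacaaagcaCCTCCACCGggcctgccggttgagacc
Cdkn1c: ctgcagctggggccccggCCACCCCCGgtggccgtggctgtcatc
The run in Rb1 covers codons 14 to 22 of 921, that in Cdk4 codons 108 to 110 of 303 and that in Cdkn1c codons 110 to 112 of 348. The 9 prolines of Rb1 made it the longest run of the set, and 82 of the 9869 genes had one at least as long. The other 7 genes, the D cyclins, Cdk6, Cdkn1a, Cdkn1b and Cdkn2a, had no run of 3.

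None of the 10 genes was called between the groups by limma on log2(RPKM + 1) at an adjusted p-value under 0.05, a call that 0.106% of the 11363 genes tested received. None passed at an unadjusted p-value under 0.05 either, against 7.32% of all genes. The log2 difference, libraries labelled KO minus WT, was above 0 for 6 of the genes and below 0 for 4, and its median was 0.07 against 0.00026 over all genes. Both libraries labelled KO lay above both WT libraries for 1 gene, Ccnd2, against 20.1% of all genes, and below both for 1 gene, Ccnd3, against 20.3%. An exact permutation test of 2 libraries against 2 can give no p-value under 0.33. A footprint level joins the amount of mRNA with the ribosomes on it, and in these cultures fewer cells of a type and less RNA per cell cannot be told apart. In the plot of levels by library the counting intervals of most genes overlap across the libraries.

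**Figure D1:**
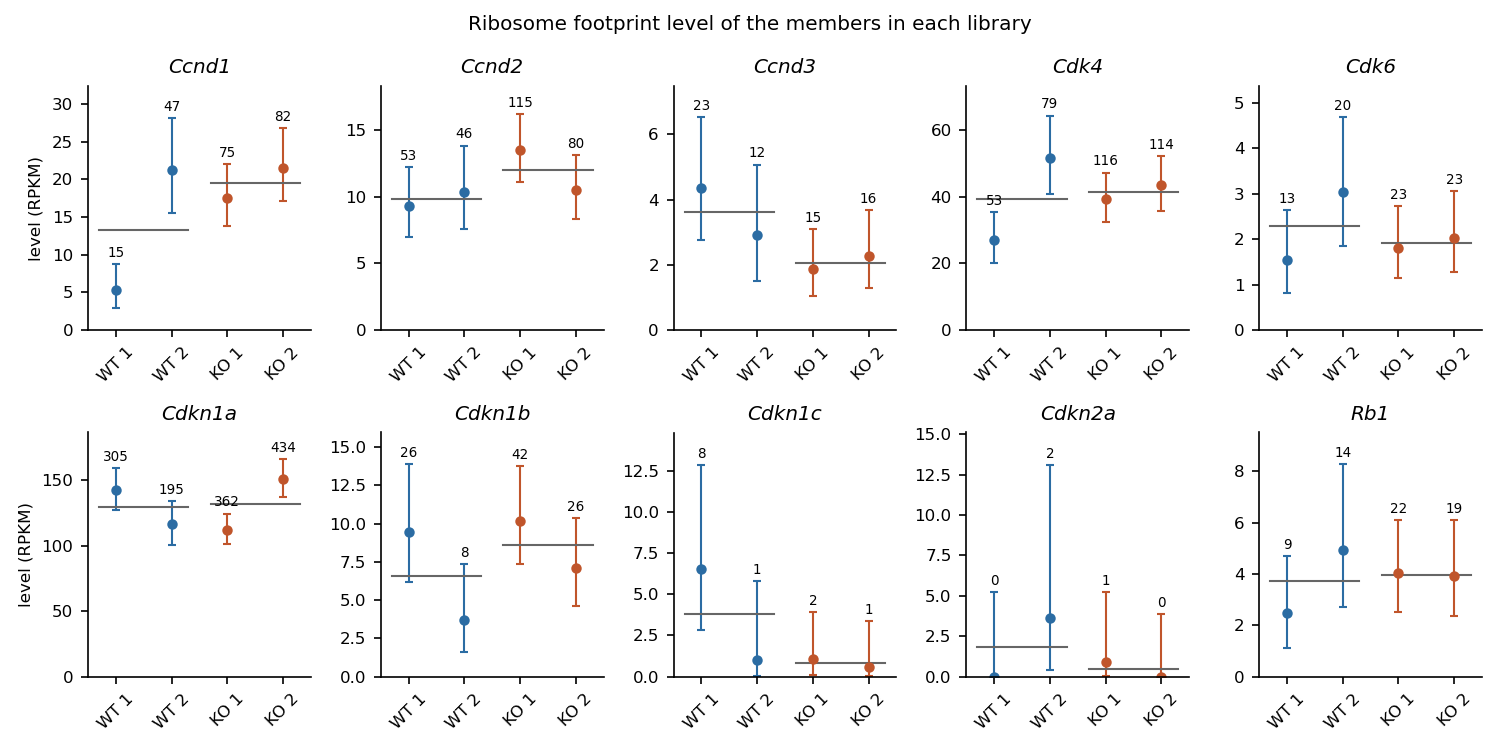
Level of each gene (RPKM, axis from 0) in the 4 libraries, WT in blue and the libraries labelled KO in orange, with 95% exact Poisson counting intervals, recovered reads above each point and a horizontal line at each group mean. Ccnd1 in WT replicate 1 (5.28 RPKM) lies below the intervals of the other 3 libraries, and Cdkn2a has 0 to 2 reads in every library.

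Among the D cyclins, Ccnd1 differed most between the WT replicates, and Ccnd2 and Ccnd3 were the genes whose groups did not overlap. Ccnd1 (ENSMUSG00000070348, chromosome 7, 144929931 to 144939925, minus strand) encodes cyclin D1, the growth factor sensor of most cultured cells. It had 15, 47, 75 and 82 reads and levels of 5.28, 21.2, 17.6 and 21.6 RPKM. WT replicate 1 was low, WT replicate 2 lay between the libraries labelled KO, and the groups overlapped. The counting interval of WT replicate 1, 2.96 to 8.72 RPKM, was separate from those of WT replicate 2 (15.6 to 28.2) and of the libraries labelled KO (13.8 to 22.0 and 17.2 to 26.8). The group means were 13.2 ± 11.2 and 19.6 ± 2.83 RPKM (SD, n = 2), with a log2 difference of 0.79 ± 0.65 (SE, 95% interval -0.81 to 2.40, adjusted p = 0.723 by limma). Without WT replicate 1 the difference was -0.12, and without WT replicate 2 it was 1.70. WT replicate 1 is also the library with the high sum of differentiating muscle markers, whose part in the result was not tested.

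Ccnd2 (ENSMUSG00000000184, chromosome 6, 127125162 to 127152193, minus strand), the cyclin D2 gene, had 53, 46, 115 and 80 reads. Its levels of 9.34, 10.4, 13.5 and 10.5 RPKM were the most even of the D cyclins. Both libraries labelled KO were above both WT libraries (KO replicate 2 exceeded WT replicate 2 by less than their counting intervals). The means were 9.86 ± 0.731 and 12.0 ± 2.09 RPKM (SD, n = 2), and the log2 difference was 0.25 ± 0.38 (SE, 95% interval -0.67 to 1.18, adjusted p = 0.837 by limma).

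Ccnd3 (ENSMUSG00000034165, chromosome 17, 47505051 to 47599691, plus strand) encodes cyclin D3, the D cyclin that differentiating muscle retains. It had 23, 12, 15 and 16 reads and levels of 4.35, 2.90, 1.88 and 2.26 RPKM. Both libraries labelled KO were below both WT libraries, and WT replicate 1 was the highest. The means were 3.63 ± 1.02 and 2.07 ± 0.264 RPKM (SD, n = 2), with a log2 difference of -0.58 ± 0.41 (SE, 95% interval -1.59 to 0.44, adjusted p = 0.706 by limma). A processed copy, Ccnd3-ps, holds 35.7% of the 30-base windows of the Ccnd3 coding sequence and had 1, 0, 0 and 0 reads. The last 361 bases of Ccnd3 overlap Bysl on the other strand, which had 7, 15, 30 and 36 reads. Whether strand was used in counting was not stated, so Ccnd3 is uncertain to that extent.

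The 3 cyclins also differed in their makeup within a library, which does not depend on how libraries were scaled. Ccnd1 made up 27.9, 61.5, 53.3 and 62.8% of the summed D cyclin level in the 4 libraries. Ccnd3 made up 22.9, 8.42, 5.73 and 6.57%. Ccnd2 supplied 49.2, 30.1, 40.9 and 30.7%. WT replicate 1 had the least Ccnd1 and the most Ccnd3. As a share of D cyclin reads, Ccnd1 had 16.5% in WT replicate 1 (95% Wilson interval 10.2 to 25.4%) against 44.8% (35.6 to 54.3%), 36.6% (30.3 to 43.4%) and 46.1% (38.9 to 53.4%) in the others. The share of Ccnd3 reads was 25.3% (17.5 to 35.1%) in WT replicate 1 and 11.4% (6.66 to 18.9%), 7.32% (4.48 to 11.7%) and 8.99% (5.61 to 14.1%) in the others. The log2 ratio of the Ccnd1 level to the Ccnd3 level was 0.28, 2.87, 3.22 and 3.26. The Ccnd1 interval of WT replicate 1 was separate from those of the 3 other libraries. Its Ccnd3 interval lay above those of the libraries labelled KO and overlapped that of WT replicate 2. The 3 proteins are related in sequence throughout, with 66.1% identical residues of those aligned between cyclins D1 and D2, 63.5% between D2 and D3 and 52.6% between D1 and D3. No 30-base coding window of Ccnd1 or Ccnd2 occurs in another gene. LTO1 overlaps Ccnd1 by 1771 bases on the other strand and had 4, 1, 2 and 4 reads, so Ccnd1 is uncertain to that extent.

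**Figure D2:**
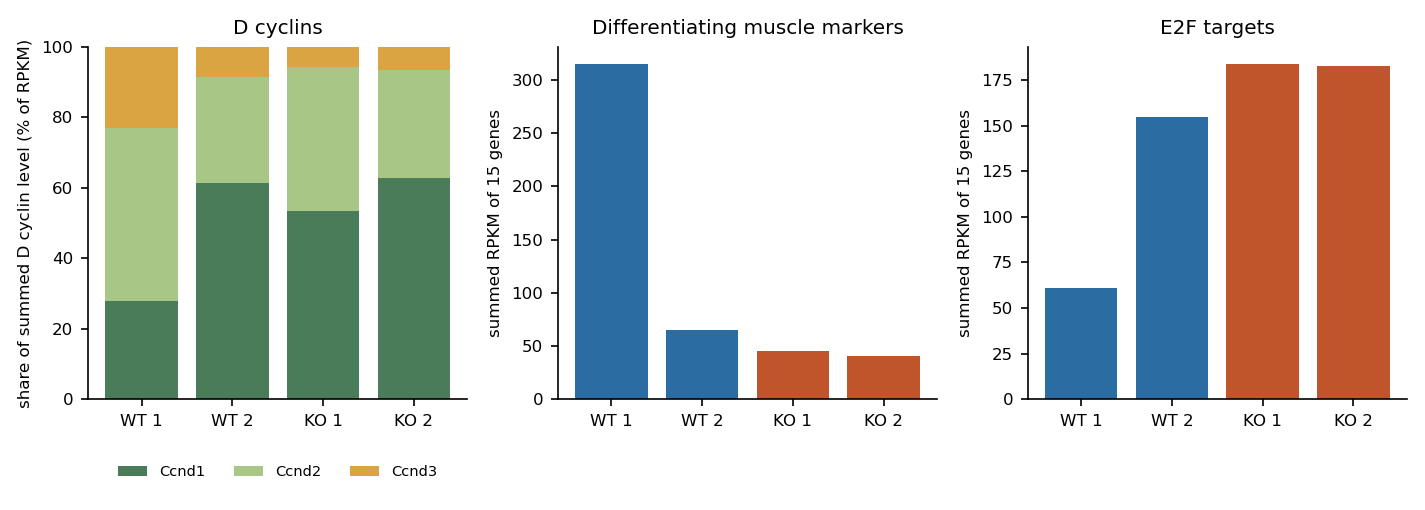
Share of each D cyclin in the summed D cyclin level (left, percent of RPKM), summed level of 15 differentiating muscle markers (middle, RPKM) and of 15 E2F target genes (right, RPKM) in the 4 libraries, WT in blue and the libraries labelled KO in orange. WT replicate 1 has the lowest Ccnd1 share (27.9%), the highest marker sum (315 RPKM) and the lowest E2F target sum (61.0 RPKM).

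Of the kinases, Cdk4 was far above Cdk6 in every library and neither differed between the groups by more than the spread of the WT replicates. Cdk4 (ENSMUSG00000006728, chromosome 10, 127063534 to 127067920, plus strand) had 53, 79, 116 and 114 reads and levels of 27.1, 51.6, 39.4 and 43.4 RPKM. The libraries labelled KO lay between the WT replicates. The means were 39.3 ± 17.4 and 41.4 ± 2.88 RPKM (SD, n = 2), with a log2 difference of 0.14 ± 0.48 (SE, 95% interval -1.04 to 1.32, adjusted p = 0.936 by limma) that became -0.31 without WT replicate 1. Cdk4 carries the run of 3 prolines shown above. Its last 641 bases overlap Tspan31 on the other strand, which had 31, 26, 58 and 44 reads, and 2.96% of its 30-base coding windows occur in other genes.

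Cdk6 (ENSMUSG00000040274, chromosome 5, 3341485 to 3531008, plus strand) had 13, 20, 23 and 23 reads and levels of 1.54, 3.03, 1.81 and 2.04 RPKM. The libraries labelled KO again lay between the WT replicates, with a log2 difference of -0.13 ± 0.48 (SE, 95% interval -1.31 to 1.05, adjusted p = 0.940 by limma) that became 0.20 without WT replicate 2. Only 6.99% of the Cdk6 gene length is coding, so its RPKM understates the footprints per coding base if its reads lie in coding sequence. A total of 12 other genes share 16.0% of its 30-base coding windows, which makes its count uncertain to that extent. Per kilobase of coding sequence Cdk4 made up 81.4, 81.0, 84.4 and 84.2% of the summed Cdk4 and Cdk6 level. The libraries labelled KO had the higher Cdk4 share, but as shares of reads (80.3, 79.8, 83.5 and 83.2%) their Wilson intervals overlapped those of WT. The 2 kinases share 69.3% of their aligned residues.

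Cdkn1a gave the highest level of the 10 genes in every library. It encodes p21, the CDK inhibitor that p53 induces and that also rises as myoblasts leave the cell cycle. The gene (ENSMUSG00000023067, chromosome 17, 29090976 to 29100727, plus strand) had 305, 195, 362 and 434 reads and levels of 142, 116, 112 and 151 RPKM. Each group held a lower and a higher library, WT replicate 2 and KO replicate 1 being the lower ones, and the groups overlapped. The means were 129 ± 18.3 and 132 ± 27.5 RPKM (SD, n = 2), with a log2 difference of 0.02 ± 0.47 (SE, 95% interval -1.14 to 1.18, adjusted p = 0.994 by limma). Cdkn1a alone made up 89.9, 96.1, 90.9 and 95.2% of the summed CIP/KIP level.

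Cdkn1b (ENSMUSG00000003031, chromosome 6, 134920401 to 134925513, plus strand) encodes p27, an inhibitor held high in quiescent cells. It had 26, 8, 42 and 26 reads and levels of 9.47, 3.73, 10.2 and 7.07 RPKM. WT replicate 2 was the low library, here in place of WT replicate 1, and the groups overlapped. The means were 6.60 ± 4.06 and 8.62 ± 2.19 RPKM (SD, n = 2), and the log2 difference of 0.43 ± 0.51 (SE, 95% interval -0.81 to 1.68, adjusted p = 0.786 by limma) became -0.14 without WT replicate 2.

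Cdkn1c (ENSMUSG00000037664, chromosome 7, 143458339 to 143461050, minus strand) encodes p57, which with p21 acts in the cell cycle exit of muscle. It had 8, 1, 2 and 1 reads and levels of 6.51, 1.04, 1.08 and 0.607 RPKM. A floor of 3 reads, taken as the limit of detection, was equal to 2.44, 3.12, 1.62 and 1.82 RPKM for this gene, so WT replicate 1 was the only library above it. The ratio of pooled reads, libraries labelled KO over WT and allowing for depth, was 0.209 with a counting interval of 0.0364 to 0.837, but WT replicate 1 gave 8 of the 9 WT reads. Cdkn1c passed the filter on low values only through the WT libraries, so this ratio and its log2 difference are no support for a change. The log2 difference was -1.10 ± 0.74 (SE, 95% interval -2.92 to 0.73, adjusted p = 0.697 by limma), and it was -0.16 without WT replicate 1 and -2.04 without WT replicate 2. Cdkn1c carries the other run of 3 prolines, and its coding sequence is the richest in G and C of the set, at 68.8%. With the trend on coding GC content and length removed, over the 9869 genes with a coding sequence, the difference was -0.59. The 3 CIP/KIP proteins share 35.2 to 38.7% of aligned residues, and no 30-base coding window of any of them occurs in another gene. The high Cdkn1c level fell in the library with the high sum of differentiating muscle markers, whose part in the result was not tested.

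Cdkn2a (ENSMUSG00000044303, chromosome 4, 89274471 to 89294653, minus strand) encodes the INK4 inhibitor p16 and, from another reading frame, the p53 regulator ARF, which a gene-level value cannot tell apart. It had 0, 2, 1 and 0 reads, all under the floor of 3 reads, so a difference was not detectable at this depth. Of the other INK4 genes, all 3 had lower values in both libraries labelled KO than in both WT libraries, an order that 20.3% of all genes tested had, at few reads each, although with scaling to total reads 1 of the 3 had a log2 difference above 0. Cdkn2b had 5, 6, 6 and 6 reads and levels of 5.97, 9.16, 4.76 and 5.34 RPKM. Cdkn2c had 4, 9, 0 and 4 reads, and Cdkn2d had 5, 3, 0 and 0. Cdkn2c and Cdkn2d, the p18 and p19 inhibitors, passed the filter on low values only through the WT libraries, so their differences are descriptions and no support for a change. These 3 genes fell outside the rule for named genes and were picked with their values in view.

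Rb1 (ENSMUSG00000022105, chromosome 14, 73183673 to 73325822, minus strand) encodes the retinoblastoma protein, the brake that cyclin D kinases release. It had 9, 14, 22 and 19 reads and levels of 2.48, 4.94, 4.03 and 3.91 RPKM. The libraries labelled KO lay close together and between the WT replicates. The means were 3.71 ± 1.74 and 3.97 ± 0.0861 RPKM (SD, n = 2), with a log2 difference of 0.13 ± 0.42 (SE, 95% interval -0.91 to 1.17, adjusted p = 0.933 by limma). It was -0.26 without WT replicate 1 and 0.51 without WT replicate 2. The gene with the run of 9 prolines was thus not detectably different between the groups at this depth, and a decrease by 0.91 or an increase by 1.17 on the log2 scale stayed within its interval. Lpar6 (13, 20, 32 and 34 reads) and Rcbtb2 (11, 7, 19 and 23 reads) overlap Rb1 on the other strand, so its reads are uncertain without strand. Of the related pocket proteins, Rbl1 (p107) had 5, 6, 30 and 22 reads and levels of 1.38, 2.13, 5.52 and 4.54 RPKM. Its log2 difference of 1.14 ± 0.40 (SE) had an unadjusted p-value of 0.0294 and did not pass after adjustment (adjusted p = 0.672 by limma). Rbl2 (p130), the pocket protein of quiescent cells, had 10, 4, 14 and 9 reads and a log2 difference of 0.08 (unadjusted p = 0.891, adjusted p = 0.971 by limma).

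**Figure D3:**
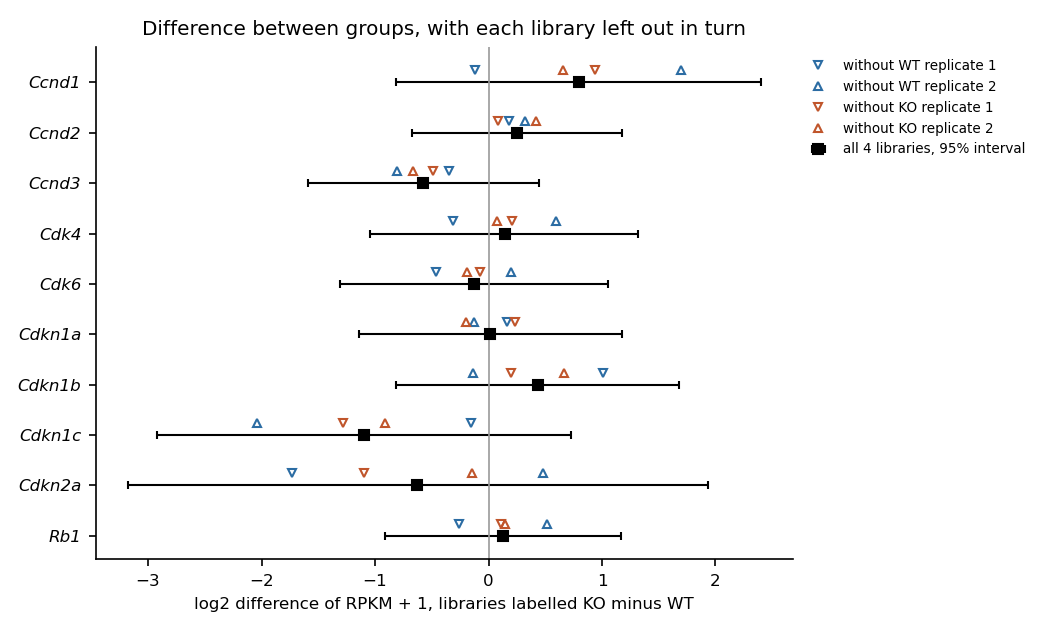
Log2 difference of RPKM + 1, libraries labelled KO minus WT, for each gene with its 95% limma interval (squares, all 4 libraries) and with each library left out in turn (triangles). Every interval spans 0, and the triangles of Ccnd1 run from -0.12 without WT replicate 1 to 1.70 without WT replicate 2.

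The spread between replicates was set beside the group differences. The gap between the 2 WT libraries on the log2(RPKM + 1) scale was larger than the difference between group means for 8 of the 10 genes, against 58.8% of all genes tested. The gap between the libraries labelled KO was larger for 4 of 10, against 47.4%. The median gap over the 10 genes was 0.839 for WT and 0.305 for those labelled KO, and the median size of the group difference was 0.342. Over all genes tested these medians were 0.605, 0.418 and 0.487. Both directions occurred. The difference of WT replicate 1 minus WT replicate 2 was -1.82 for Ccnd1, -0.91 for Cdk4, -0.77 for Rb1, -0.67 for Cdk6, -0.14 for Ccnd2 and, at 0 and 2 reads, -2.21 for Cdkn2a. It was 1.88 for Cdkn1c, 1.15 for Cdkn1b, 0.45 for Ccnd3 and 0.29 for Cdkn1a.

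Drivers and inhibitors were also summed within each library. The 3 D cyclins summed to 19.0, 34.5, 32.9 and 34.3 RPKM, and Cdk4 with Cdk6 to 28.6, 54.6, 41.2 and 45.5 RPKM, so WT replicate 1 was the lowest library in both sums. The 4 inhibitors summed to 158, 125, 125 and 159 RPKM, nearly all of it Cdkn1a. The ratio of inhibitor level to D cyclin and kinase level was 3.33, 1.40, 1.68 and 1.99. WT replicate 1 had the highest ratio and WT replicate 2 the lowest, and the libraries labelled KO lay between them. On the log2 scale the means were 1.11 ± 0.883 and 0.87 ± 0.173 (SD, n = 2).

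Ordered by mean RPKM over the 4 libraries, Cdkn1a (131) was followed by Cdk4 (40.4), Ccnd1 (16.4), Ccnd2 (10.9), Cdkn1b (7.61), Rb1 (3.84), Ccnd3 (2.85), Cdkn1c (2.31), Cdk6 (2.11) and Cdkn2a (1.14). The ranges of neighbours over the libraries were apart between Cdkn1a and Cdk4 and between Cdk4 and Ccnd1, and all other neighbours overlapped. Cdkn1a was at percentile 96.7 of the genes tested by mean RPKM, Cdk4 at 92.1 and Ccnd1 at 82.7. RPKM divides by the whole exon length. Coding sequence makes up from 6.99% of the length of Cdk6 to 51.2% of that of Cdkn1c. The values per coding kilobase assign every read to coding sequence, which these gene-level values cannot check. Per kilobase of coding sequence, at the same scaling, the order was Cdkn1a (973), Cdk4 (144), Ccnd2 (119), Ccnd1 (87.2), Cdkn1b (58.6), Cdk6 (30.1), Ccnd3 (28.5), Rb1 (8.36), Cdkn1c (4.51) and Cdkn2a (2.64). On that scale the ranges of neighbours were apart between Cdkn1a and Cdk4 and between Ccnd3 and Rb1. Ccnd2 passed Ccnd1, though their ranges overlapped, and Cdk6 moved from below Rb1 to above it with ranges apart.

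**Figure D4:**
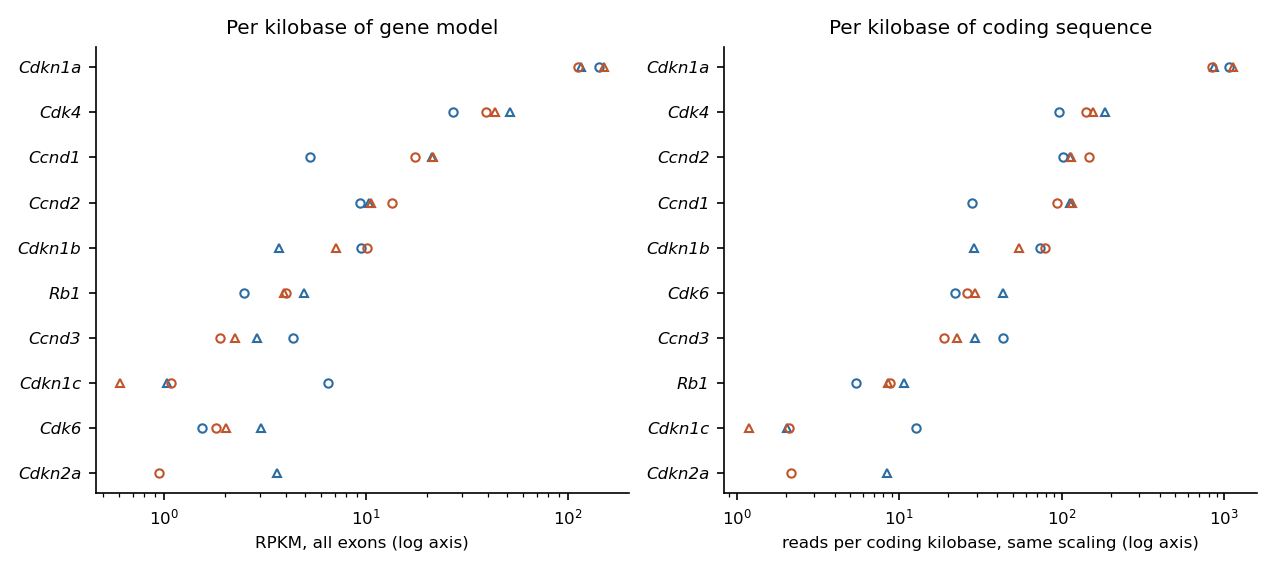
Level of each gene in the 4 libraries on a log axis, per kilobase of gene model (left, RPKM) and per kilobase of coding sequence (right, same scaling), with WT in blue, the libraries labelled KO in orange, circles for replicate 1 and triangles for replicate 2. Libraries with 0 reads (Cdkn2a in 2 libraries) have no point, and Cdkn1a is the highest gene on both scales (mean 131 and 973).

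The other genes of the G1 to S pathway were taken from a list of 55 by role, of which 50 had a mean of at least 1 RPKM. None was called after adjustment. At an unadjusted p-value under 0.05, 5 were higher in the libraries labelled KO, against 2.86% of all genes, and 1, Cdkn2d, was lower, against 4.46%. Of the 50, 31 had a log2 difference above 0 and 19 below, and the median was 0.24. With scaling to total reads, which moved the median of all genes by 0.47, 42 were above 0 and 8 below. Both libraries labelled KO were above both WT libraries for 18 of the 50, against 20.1% of all genes, and below both for 8, against 20.3%. Without WT replicate 1 the median of the 50 genes was 0.10, and without WT replicate 2 it was 0.40. Without KO replicate 1 it was 0.33 and without KO replicate 2 it was 0.11.

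Among the E2F targets, genes that replicate DNA and drive S phase, 13 of 15 had a log2 difference above 0, and the median was 0.88. Both libraries labelled KO were above both WT libraries for 10 of them, against 20.1% of all genes, and below both for none, against 20.3%. Mcm4, a subunit of the replicative helicase, had 14, 15, 66 and 50 reads and levels of 6.47, 8.87, 20.3 and 17.2 RPKM. The WT replicates were close together and both libraries labelled KO were above them, with a log2 difference of 1.20 ± 0.39 (SE, unadjusted p = 0.022, adjusted p = 0.660 by limma). Rrm1, the large subunit of ribonucleotide reductase, had 12, 32, 124 and 93 reads and a log2 difference of 1.47 ± 0.53 (SE, adjusted p = 0.672 by limma). Ccna2, the cyclin A2 gene, picked with its values in view, had 0, 3, 14 and 15 reads. It passed the filter on low values only through the libraries labelled KO, so its difference is no support for a change. The 15 genes summed to 61.0, 155, 184 and 183 RPKM. WT replicate 1 was again the low library, and without it the median was 0.44 with 10 of 15 genes above 0. Without WT replicate 2 the median was 1.35. WT replicate 1 had the high sum of differentiating muscle markers, whose part in the result was not tested.

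Cyclin E and its kinase act on Rb1 after the D cyclins. Cdk2 had 6, 6, 30 and 21 reads and levels of 1.60, 2.05, 5.32 and 4.18 RPKM, with a log2 difference of 1.02 ± 0.39 (SE, unadjusted p = 0.0408, adjusted p = 0.672 by limma). Unlike Ccnd1, Cdk2 had equal reads in the WT replicates. Ccne1 had 1, 0, 7 and 3 reads, a pooled ratio of 6.26 with a counting interval of 0.891 to 272 that spans 1. It passed the filter on low values only through the libraries labelled KO, so this ratio is no support for a change. Ccne2 had 1, 0, 3 and 3 reads, a mean under 1 RPKM, and was not tested. The E2F and DP factors had 2 genes above 0 and 4 below among the 6 tested, with a median of -0.68. With a library left out this median ranged from -0.79 without KO replicate 2 to -0.39 without WT replicate 2. With scaling to total reads it was -0.19. E2f1, the activator that the retinoblastoma protein restrains, had 6, 11, 13 and 15 reads and a log2 difference of 0.06 (adjusted p = 0.971 by limma). The 8 genes of cyclin and inhibitor turnover were split into 4 above and 4 below 0.

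Of the 9 genes of p53 and its targets other than Cdkn1a, 6 had a log2 difference above 0 and 3 below, with a median of 0.18. With scaling to total reads all 9 were above 0 (median 0.77), and without KO replicate 2 there were 4 above and 5 below (median -0.06). Trp53, the gene of p53, had 43, 48, 73 and 95 reads and a log2 difference of 0.18 (adjusted p = 0.904 by limma). Mdm2, the p53 target that degrades p53, had 41, 30, 85 and 78 reads and levels of 13.4, 12.5, 18.4 and 19.0 RPKM. Both libraries labelled KO were above both WT libraries, with a log2 difference of 0.50 ± 0.37 (SE, adjusted p = 0.711 by limma).

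**Figure D5:**
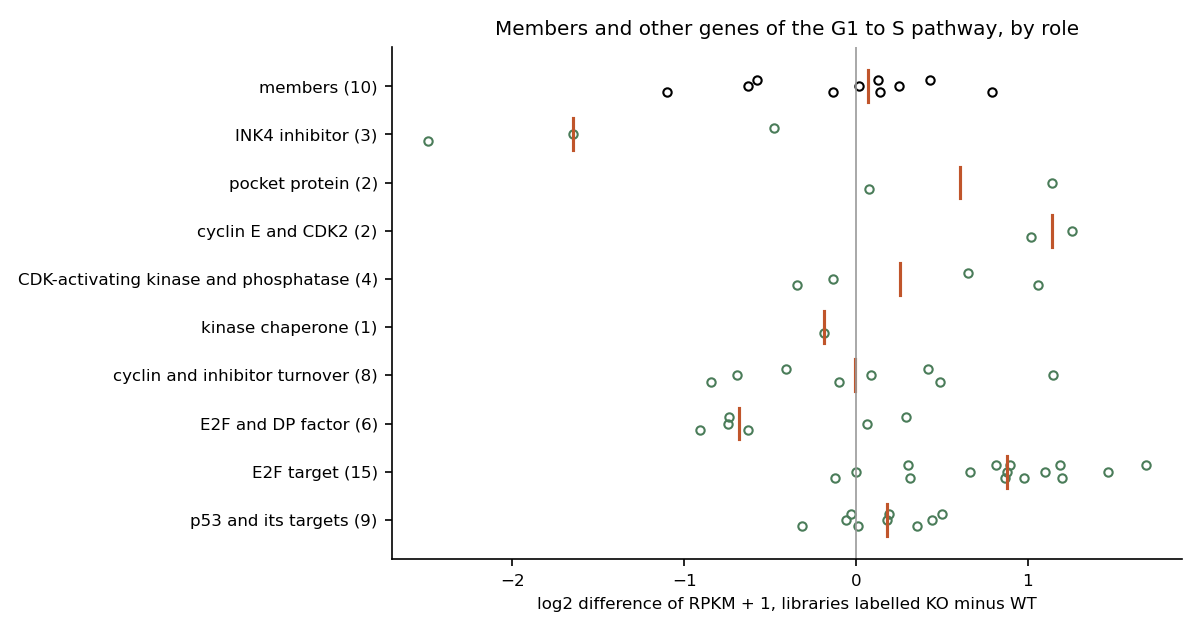
Log2 difference of RPKM + 1, libraries labelled KO minus WT, for the 10 genes (black circles) and the other tested genes of the G1 to S pathway (green circles) by role, with the number tested in brackets and the median as an orange bar. The E2F targets have a median of 0.88. Cdkn2c and Cdkn2d, the 2 lowest of the 3 INK4 genes, passed the filter on low values only through WT, so the INK4 median is no support for a change.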

How the data were processed

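Ribo-seq libraries of primary mouse myoblasts, 2 labelled WT and 2 labelled KO, were grouped by their GEO labels. Per the labels and the methods of the study, the authors removed low-quality, rRNA and tRNA reads, aligned the rest to mm10 with TopHat2, counted reads per gene with HTSeq on Ensembl models and deposited RPKM values with each gene's length. Whether strand was used, and how reads matching several places were counted, was not given in the sources used here. RPKM times length, in units of a library's smallest value above 0, came out as whole reads for 100.0% of values (tolerance 0.001). The library denominators this implies (602863, 471136, 906990 and 807705 reads) are not the library totals, and how they were set was not given in the sources used here. With them the median log2 difference of all genes tested was 0.00026, so a shift common to most genes may be hidden.

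The main test was limma 3.58.1 in R 4.3.3 (lmFit and eBayes with trend) of WT against KO, without covariates, on log2(RPKM + 1) over the 11363 genes averaging 1 RPKM or more, two-sided, with Benjamini-Hochberg adjustment at 0.05. The scale understates the change of low genes. Scripts were tested on simulated data. Other values and figures used Python 3.11.15. Levels of single libraries have 95% exact Poisson intervals, shares of reads Wilson intervals and ratios of pooled reads exact intervals. Without molecular identifiers, these intervals and the floor of 3 reads cover counting error only. Coding sequences were the longest of each gene in GENCODE vM21, found for 99.5% of protein-coding genes, and positions of genes were taken from the deposited table.

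The 10 genes, the pathway and marker lists and the tests were chosen with earlier results of these data known. Named were the 10 genes, Eif5a, Myog, 8 pathway genes (Ccne1, Ccne2, Cdk2, E2f1, Rbl1, Rbl2, Trp53 and Mdm2) and any pathway gene averaging 5 RPKM or more whose unadjusted p-value was under 0.05. Other genes named, marker genes among them, were picked with their values in view. Alternatives were a pseudocount of 0.1, no filter, a mean RPKM of at least 5, scaling to total or to protein-coding reads, quantile normalization, voom on recovered reads, removal of the GC and length trend, the replicate block, both together and leaving out each library, where the lone library of a group is assumed to vary like the other group. Testing protein-coding genes only was added after seeing the data.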

Additional observations from a re-analysis of the deposited data

How the results depend on the processing

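None of the 10 genes was called in any alternative that tested it. A mean RPKM of at least 5 left 5 of them to test, and the other alternatives, those with a library left out included, tested all 10. For them the lowest adjusted p-value was 0.321, for Ccnd1. The 12 genes called over the whole table became 0 with a mean RPKM of at least 5, with no filter, with a pseudocount of 0.1, with scaling to total reads, with the replicate block and with each library left out (0 to 0), while 430 to 1854 genes passed at an unadjusted p-value of 0.05 there, and they became 77 with voom. Taking out GC and length trends also gave 0, or 9 together with the replicate block, but over the 9869 genes with a coding sequence, and the 9877 protein-coding genes alone gave 0 as well. Scaling to total reads moved the median gene by 0.47, the median of the 10 genes to 0.63, that of the pathway list to 0.79 and Cdk6 to 0.29. Rb1 became -0.17 with the GC and length trend removed, also together with the replicate block, and Cdkn1a became -0.10 with scaling to protein-coding reads. With a library left out, the median of the 10 genes ranged from -0.21 to 0.26, Ccnd1 from -0.12 to 1.70, Cdk4 from -0.31 to 0.59, Rb1 from -0.26 to 0.51, Cdk6 from -0.47 to 0.20, Cdkn1a from -0.20 to 0.23, Cdkn1b from -0.14 to 1.01 and Cdkn2a, with 0 to 2 reads a library, from -1.73 to 0.48. Ccnd2 (0.09 to 0.42), Ccnd3 (-0.80 to -0.35) and Cdkn1c (-2.04 to -0.16) kept their sign there and in every other alternative that tested them. With scaling to total reads they were 0.82, -0.14 and -0.78. Cdkn1c passed the filter on low values only through WT, so its kept sign is no support for a change. The cause of the shifts between alternatives was not tested. The groups share only a replicate number: the deviations of the libraries numbered 1 from their group means had a correlation of 0.0575. The counts of the 10 genes, 1 to 434 reads where any were seen, limit what can be detected.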
